A study of Mus musculus with 42 samples.

Results

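Kidneys of KspCre double knockout (DKO) mice, in which Tsc2 and Tfeb were both deleted, were compared whole with kidneys of control mice, all collected untreated at postnatal day 50 (P50). The comparison rests on 6 of the 42 RNA-seq libraries of the series, chosen by the genotype and treatment in their labels: 3 DKO libraries (KspCre+; Tsc2 fl/fl; Tfeb fl/fl) and 3 control libraries. The study's methods place all mice on a C57BL/6 background. The labels give the controls as wild type, whereas the study's legends describe KspCre controls as Cre-negative, and whether their alleles are floxed was not settled. Within these 6 libraries, an effect of Cre itself cannot be told apart from an effect of the deletions. KspCre is driven by the promoter of cadherin 16, which is active in tubular epithelium. Podocytes, endothelium, fibroblasts and blood-derived cells of the kidney are not known as targets of this Cre. Also used were 3 Tsc2 KO and 3 Tfeb KO libraries of the same untreated P50 cohort, and, from other mice, 3 control and 3 DKO libraries that had received 11 injections of vehicle up to P50.

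TSC2 and its partner TSC1 hold back mTORC1, the kinase complex that couples growth to amino acid supply, and loss of either gene causes tuberous sclerosis complex, in which the kidney forms cysts and tumours. TFEB is a transcription factor of the MiT/TFE family that switches on genes of lysosomes and autophagy, and its close relative TFE3 binds the same DNA element. The comparison of DKO with control kidneys asks what still differs from a normal kidney when tubules have lost Tsc2 and cannot use Tfeb.

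Sequencing counted 14926050 to 20541625 reads on genes per library of the untreated cohort. Cdh16, the gene whose promoter drives this Cre, was present in every library, at 359, 358 and 427 FPKM in controls 1, 2 and 3 and 342, 393 and 406 FPKM in DKO 1, 2 and 3 (FPKM, a level per gene length and sequencing depth). Markers of the proximal tubule (Slc34a1), thick ascending limb (Umod), collecting duct (Aqp2) and glomerulus (Nphs1) were detected in all of these libraries too. The p-values below set differences between groups against the spread between mice of the same group. For the untreated cohort that spread was estimated over all 12 libraries, or 11 without DKO 1, not from the 6 compared ones alone. Each value is an average over all cells of a kidney, so fewer cells of a type and less RNA per cell cannot be told apart.

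One DKO library stood apart from the rest. DKO 1 was rich in transcripts of blood-derived immune cells, and 28 of 30 macrophage genes, 26 of 26 T cell genes, 17 of 24 B and plasma cell genes and 12 of 14 neutrophil genes were highest in it among the 12 untreated libraries. The summed level of the macrophage genes was 3937, 466 and 631 FPKM in DKO 1, 2 and 3 and 354, 531 and 442 FPKM in the controls. For B and plasma cell genes the sums were 4815, 84.3 and 123 FPKM in DKO and 155, 94 and 69.8 FPKM in control libraries, most of it from the immunoglobulin light chain gene Igkc. T cell genes summed to 165, 12.7 and 17.9 FPKM in the DKO libraries against 7.56, 14.4 and 9.35 FPKM, and neutrophil genes to 152, 4.23 and 4.42 against 2.97, 3.85 and 7.28 FPKM. DKO 2 lay within the control range for all 4 cell types and DKO 3 within it for B cell and neutrophil genes and above it for macrophage and T cell genes, while DKO 1 lay 7.42 to 31 times above the highest control. No macrophage, T cell or B cell gene was at 0 in all 3 controls, and 3 neutrophil genes were. Counts and the values of most named genes are therefore given with and without DKO 1.

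**Figure D1:**
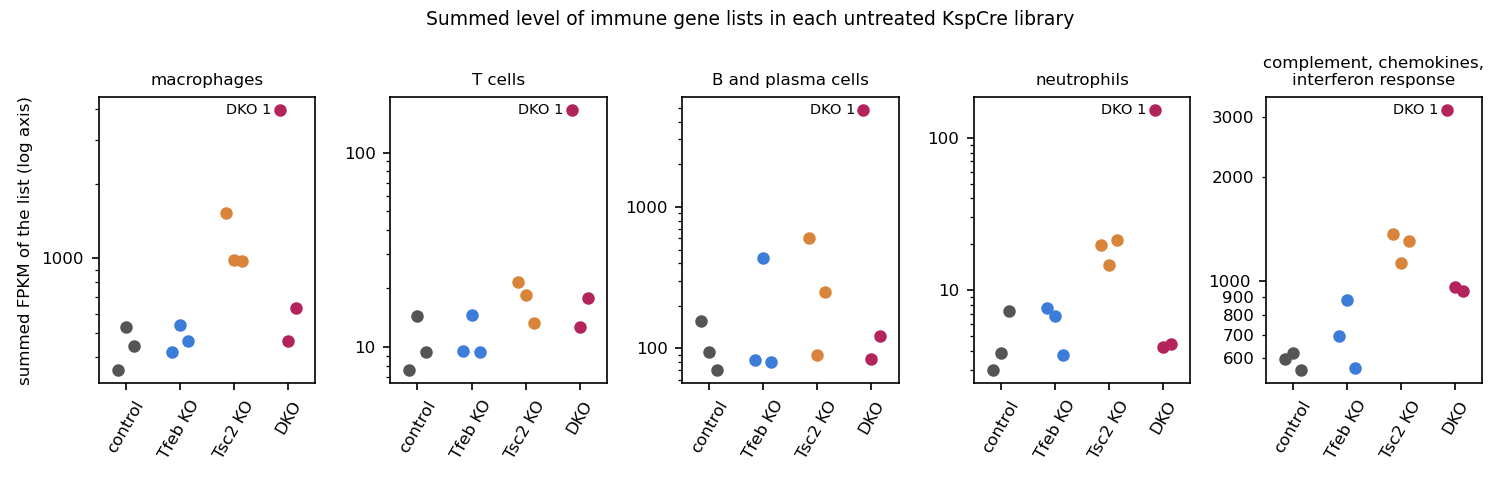
Summed FPKM (log axis) of the genes of 5 immune gene lists in each of the 12 untreated KspCre libraries, 1 point per library, by genotype. DKO 1 is the highest point in every panel, and the other 2 DKO libraries lie near the controls for the 4 cell types and above them for the complement, chemokine and interferon genes.

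The targeted genes were looked at first. Tsc2 (ENSMUSG00000002496, chromosome 17, 24595816 to 24632630, minus strand, mm10) had 8.77, 9.26 and 8.75 FPKM in control and 5.27, 5.81 and 5.17 FPKM in DKO libraries, or -0.72 on the log2 scale with a standard error (SE) of 0.14. The adjusted p was 0.0199, as for all tests here from the quasi-likelihood test of edgeR after Benjamini-Hochberg adjustment. The 2 groups did not overlap, and the transcript, counted over the whole gene, was still detected in each DKO library. Without DKO 1 the fold change was -0.70 (adjusted p = 0.0561), and Tsc2 was then not called. In Tsc2 KO kidneys Tsc2 was at 3.91 ± 0.419 FPKM (SD, n = 3), and the difference between DKO and Tsc2 KO was not past the threshold (0.47 on the log2 scale, adjusted p = 0.166). Tsc2 overlaps its neighbour Pkd1 on the opposite strand over 693 bases, and the libraries carry no strand information, but Pkd1 did not exceed 3.14 FPKM in any library.

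Tfeb (ENSMUSG00000023990, chromosome 17, 47737030 to 47792419, plus strand) was at 5.85, 6.05 and 6.24 FPKM in control and 4.09, 3.08 and 2.65 FPKM in DKO libraries. It changed by -0.88 (SE 0.20, adjusted p = 0.041), and -1.08 without DKO 1 (adjusted p = 0.0283), the library in which Tfeb was highest of the DKO group. In Tsc2 KO kidneys, where Tfeb was not deleted, it was at 3.96, 6.12 and 3.66 FPKM, and in Tfeb KO kidneys at 4.32, 4.80 and 5.25 FPKM. In 2 Tsc2 KO kidneys the transcript was thus within the DKO range, and in all 3 Tfeb KO kidneys above it. All 3 DKO libraries lay below all 3 controls for both targeted genes. In the vehicle cohort Tsc2 differed by -0.62 (adjusted p = 0.00261) and Tfeb by -0.66 (adjusted p = 0.0466).

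Of 16631 genes tested, 179 were increased (1.08%) and 120 decreased (0.722%) in DKO relative to control kidneys, where a gene counts as called if its adjusted p was at most 0.05 and 1 of the 2 groups averaged 5 FPKM or more. Increased genes had a median change of 1.2 on the log2 scale, and 112 of them rose by 1 or more, while the decreased ones had a median of -0.86 and 36 of them fell by 1 or more on the log2 scale. Without DKO 1, 142 genes of 16972 were increased (0.837%) and 47 decreased (0.277%). Of the 179 increased genes, 116 were called again without DKO 1, and of the 120 decreased genes, 33. Every one of the 299 kept its direction. The median fold changes were 1.12 and -0.87 without DKO 1, in a fit that shares 5 of the 6 libraries. Without control 1 the counts were 43 increased and 11 decreased genes, without control 2 they were 63 and 27, and without control 3 they were 101 and 71. The counts were 145 and 83 without DKO 2 and 120 and 26 without DKO 3. Called whichever of the 6 libraries was left out were 35 increased genes, among them Ttr, Fetub, Aoc1, Guca2a, Hexa, Ctsc, Ctsd, Atp6v0d2, Slc20a1, Oasl1, Cxcl10, Irf7, Ifit1, Ifit2 and Ifit3, and 10 decreased genes, among them Acy1, Adhfe1, Afmid, Bphl, Cckar, Ehhadh, Gcgr, Gpm6a and Them7.

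**Figure D2:**
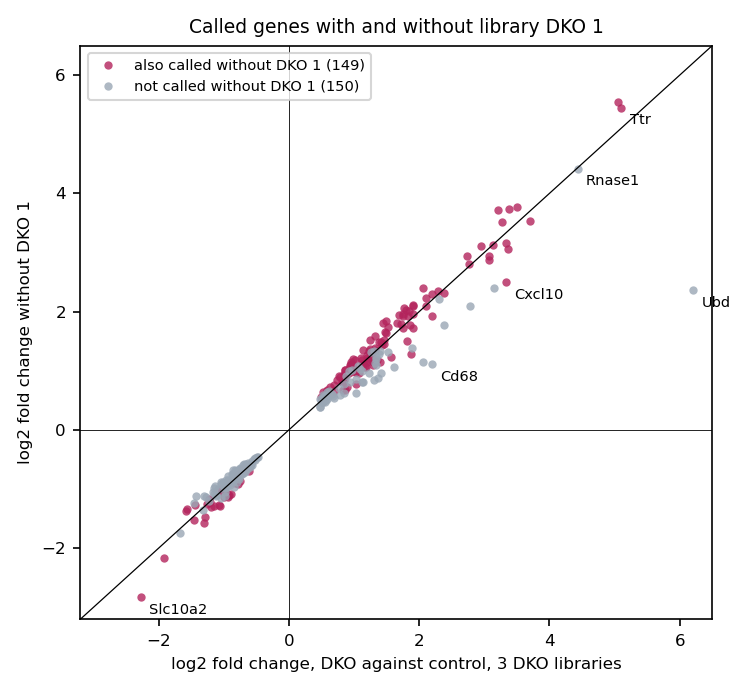
Log2 fold change, DKO against control, of each of the 299 called genes with all 3 DKO libraries (horizontal axis) and without DKO 1 (vertical axis), 1 point per gene, with the line of equal values. The 149 genes also called without DKO 1 and most of the other 150 lie near the line, whereas Ubd, Cd68 and Cxcl10 fall below it.

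The 10 largest increases called with and without DKO 1 were those of Ttr, Aqp8, Calml3, Fetub, Oasl1, Aoc1, Cxcl10, Ptgds, Tchhl1 and Guca2a, protein-coding genes with log2 fold changes of 3.14 to 5.10. Their choice required a call without DKO 1 and groups that did not overlap, so neither is a further result. Ttr encodes transthyretin, the carrier of thyroxine and of retinol-binding protein. It had 16.3, 29.8 and 46.2 FPKM in controls and 494, 1230 and 1460 FPKM in DKO libraries, a change of 5.10 on the log2 scale (SE 0.57, adjusted p = 0.00226). The lowest DKO value, that of DKO 1, was still above every control, and without it the fold change was 5.45 (adjusted p = 0.000952). Its level in Tsc2 KO kidneys was 1452 ± 466 FPKM (SD, n = 3), and DKO and Tsc2 KO did not differ past the threshold (-0.45, adjusted p = 0.774).

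Guca2a (ENSMUSG00000023247, chromosome 4, 119637704 to 119639471, plus strand) and Guca2b (ENSMUSG00000032978, chromosome 4, 119656607 to 119658954, minus strand) are neighbours that encode guanylin and uroguanylin, peptides that activate guanylate cyclase C. They moved in opposite directions. Guca2a was at 3.34, 4.34 and 4.22 FPKM in control and 35.5, 31.7 and 37.7 FPKM in DKO libraries (3.14, SE 0.40, adjusted p = 0.00439). Guca2b, the more abundant of the pair, was at 286, 293 and 243 and 147, 85.5 and 99.1 FPKM (-1.31, SE 0.26, adjusted p = 0.0241). In neither gene did the groups overlap, as the choice required, and without DKO 1 the values were 3.12 and -1.57 (adjusted p = 0.00547 and 0.0144).

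Fetub, which encodes the secreted protease inhibitor fetuin-B, had 1.31, 1.31 and 1.11 FPKM in controls and 5.7, 16.2 and 17.1 FPKM in DKO libraries (3.38, adjusted p = 0.00856, and 3.74 with adjusted p = 0.00228 without DKO 1). Aoc1, a diamine oxidase that degrades histamine and putrescine, had 1, 1.92 and 3.86 and 28.1, 16.5 and 24.3 FPKM (3.33, adjusted p = 0.00832, and 3.16 with adjusted p = 0.0135 without DKO 1). Ptgds, a prostaglandin D synthase, had 5.82, 4.34 and 4.83 and 30.3, 51.9 and 62.7 FPKM (3.27, adjusted p = 0.011, and 3.52 with adjusted p = 0.01 without DKO 1). In these 3 genes the DKO libraries lay above all controls, as the choice required, and the lowest DKO value was DKO 1 for Fetub and Ptgds. Aqp8, a water channel, was close to 0 in controls (0.0405, 0.122 and 0.704 FPKM) and spread over 1.59, 8 and 20.7 FPKM in DKO libraries (5.04, SE 1.12, adjusted p = 0.0359), with at least 1 count in every control. Its log2 fold change ranged from 3.96 to 6.88 with each library left out, and its adjusted p reached 0.156 without control 1. Calml3, a calmodulin-like protein, and Tchhl1 had fold changes of 3.50 and 3.22 (adjusted p = 0.0199 and 0.0356), with DKO levels of 4.19, 11.8 and 5.24 FPKM for Calml3 and 1.78, 9.88 and 19.6 FPKM for Tchhl1. With each library left out, the log2 fold changes of these 2 genes ranged from 2.92 to 4.03 and from 2.37 to 3.72. Without control 1 their adjusted p reached 0.0905 and 0.157.

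A second set of increases lost its call without DKO 1. The 5 protein-coding genes with the largest increase among those whose call was lost without it were Ubd, Rnase1, S100a14, Oas1a and Oit1. Ubd, a ubiquitin-like protein induced by interferon gamma and tumour necrosis factor, was at 130.2, 4.1 and 2.28 FPKM in DKO 1, 2 and 3 and 0.688, 0.485 and 0.657 FPKM in controls. Its log2 fold change went from 6.20 to 2.37 without DKO 1 (adjusted p = 0.0419), and its call was lost because the mean of DKO 2 and DKO 3 was under 5 FPKM. Oas1a, an oligoadenylate synthetase with close relatives beside it, was at 11.7, 3.32 and 4.94 FPKM in DKO and 0.849, 0.889 and 1.15 FPKM in control libraries. S100a14 and Oas1a lost their calls to the same minimum, at 2.39 and 2.09 (adjusted p = 0.0288 and 0.0148). Rnase1, a secreted ribonuclease, was at 16.1, 8.54 and 23 FPKM in DKO and 0.0645, 0 and 2.02 FPKM in control libraries, with 1 control at 0. Its fold change was 4.43, and 4.42 without DKO 1 (adjusted p = 0.0752), and it depended on the controls, with 3.88 without control 2 and 8.66 without control 3. Oit1 had 10.6, 5.06 and 3.28 FPKM in DKO and 0.735, 1.97 and 0.922 FPKM in control libraries (2.38, and 1.78 with adjusted p = 0.123 without DKO 1). Of the 63 increased genes that lost their call without DKO 1, 7 still had an adjusted p of 0.05 or lower.

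Interferon-response genes were increased in DKO kidneys, some of them called with and without DKO 1 and others only with it. The list of complement, chemokine and interferon genes had 27 tested members. Of these, 7 were increased (25.9%, against 1.08% of all tested genes), namely Cxcl10, Cxcl16, Ifit1, Ifit3, Irf7, Isg15 and Oas1a, and 0 decreased. Without DKO 1, 4 were increased, namely Cxcl10, Ifit1, Ifit3 and Irf7. The median of the list was 1.83 on the log2 scale, and 0.80 without DKO 1, beside 0.00 and -0.01 over all tested genes. In 16 of the 27 genes all 3 DKO libraries lay above all 3 controls, which was the case for 13.0% of all tested genes.

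The DNA just upstream of these genes is shown because interferon-activated factors of the IRF and STAT families bind repeats of GAAA in such promoters. RefSeq promoter windows (GRCm38.p6, the build of the deposited tables) were found for 6 of the 7 increased genes, and their 250 bases before the start of transcription were searched on both strands for GAAANNGAAA. The letters were present in 5 of these 6 windows. The 178 windows of increased genes, which include those 5, held them in 8.43%. They were in 2.61% of 115 windows of decreased genes and in 2.98% of all 32851 windows. The list was chosen to hold interferon-response genes, so its share is not independent evidence. The same windows were searched for CACGTG, the core of the element that MiT/TFE factors bind. It was in 7.69% of 13 windows of the increased lysosomal genes described below, in 10.1% of windows of increased, 9.57% of windows of decreased and 7.86% of windows of all tested genes. The longer GTCACGTGAC, which holds CACGTG, was in none of the 13 windows and in 0.46% of windows of tested genes. These 13 windows cover 10 of the 12 lysosomal genes and only bases before the start of transcription. With so few windows, finding none does not show that the element is lacking. Each stretch below is written 5′ to 3′ on the strand of its gene, with the first match to GAAANNGAAA in capitals.
Ifit1 (chr19:34640760-34640819, plus strand): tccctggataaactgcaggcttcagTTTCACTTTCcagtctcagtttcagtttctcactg
Ifit3 (chr19:34583348-34583407, plus strand): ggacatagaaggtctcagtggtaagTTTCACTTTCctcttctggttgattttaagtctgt
Isg15 (chr4:156200862-156200921, minus strand): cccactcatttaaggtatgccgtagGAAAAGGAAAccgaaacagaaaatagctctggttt
Cxcl10 (chr5:92349068-92349127, minus strand): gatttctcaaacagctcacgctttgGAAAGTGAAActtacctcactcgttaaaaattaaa
Oas1a (chr5:120907526-120907570, minus strand): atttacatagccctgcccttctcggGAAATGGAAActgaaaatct
A match in letters is a description and shows no binding.

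Ifit1 (ENSMUSG00000034459, chromosome 19, 34640871 to 34650009, plus strand), an interferon-induced protein that binds viral RNA caps, had the smallest adjusted p of the named genes. It was at 2.31, 2.45 and 1.99 FPKM in controls and 24, 15 and 18 FPKM in DKO libraries, a change of 3.08 (SE 0.27, adjusted p = 0.000549), and 2.88 without DKO 1 (adjusted p = 0.000952). DKO 1 was highest, and DKO 2 and DKO 3 also lay above all controls. The Tsc2 KO mean of 9.58 ± 3.29 FPKM (SD, n = 3) lay below the DKO mean of 19 ± 4.56 FPKM, a difference of 0.99 that did not pass the threshold (adjusted p = 0.125). Ifit3 was at 13.1, 18.6 and 15.1 and 55.3, 42.5 and 78.2 FPKM (1.91, adjusted p = 0.00346), highest in DKO 3, and 1.95 without DKO 1 (adjusted p = 0.00477). The near copy Ifit3b lies beside it, so reads of the pair may have been shared.

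Irf7, a transcription factor that amplifies interferon signalling, was at 3.41, 3.65 and 3.01 FPKM in control and 20.7, 10.3 and 15.3 FPKM in DKO libraries (2.20, adjusted p = 0.00284, and 1.93 without DKO 1). Oasl1, an interferon-induced relative of the oligoadenylate synthetases, was at 0.589, 0.519 and 0.725 and 8.79, 4.65 and 5.62 FPKM (3.37, adjusted p = 0.00146, and 3.06 without DKO 1). Cxcl10, the chemokine that attracts T cells through CXCR3, was at 1.28, 2.06 and 1.38 and 29.7, 8.06 and 9.7 FPKM. Its fold change of 3.33 (adjusted p = 0.0054) was 2.49 without DKO 1 (adjusted p = 0.00104), and DKO 1 was the highest library. Isg15, the ubiquitin-like modifier, was at 42.8, 9.47 and 14.1 FPKM in DKO and 3.73, 6.31 and 5.89 FPKM in control libraries, and its fold change fell from 2.06 to 1.15 without DKO 1 (adjusted p = 0.111). Markers of macrophages and lymphocytes moved with these values in DKO 1. In DKO 2 and DKO 3 Ifit1 was still above all controls. Macrophage genes summed to 465.7 and 630.9 FPKM in these libraries, against 354 to 531 FPKM in controls. T cell genes summed to 12.7 and 17.9 FPKM, against 7.56 to 14.4 FPKM, so DKO 3 was above every control for both lists. B and plasma cell genes lay within the control range in both libraries. Which cells held the interferon-response transcripts was not tested.

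**Figure D3:**
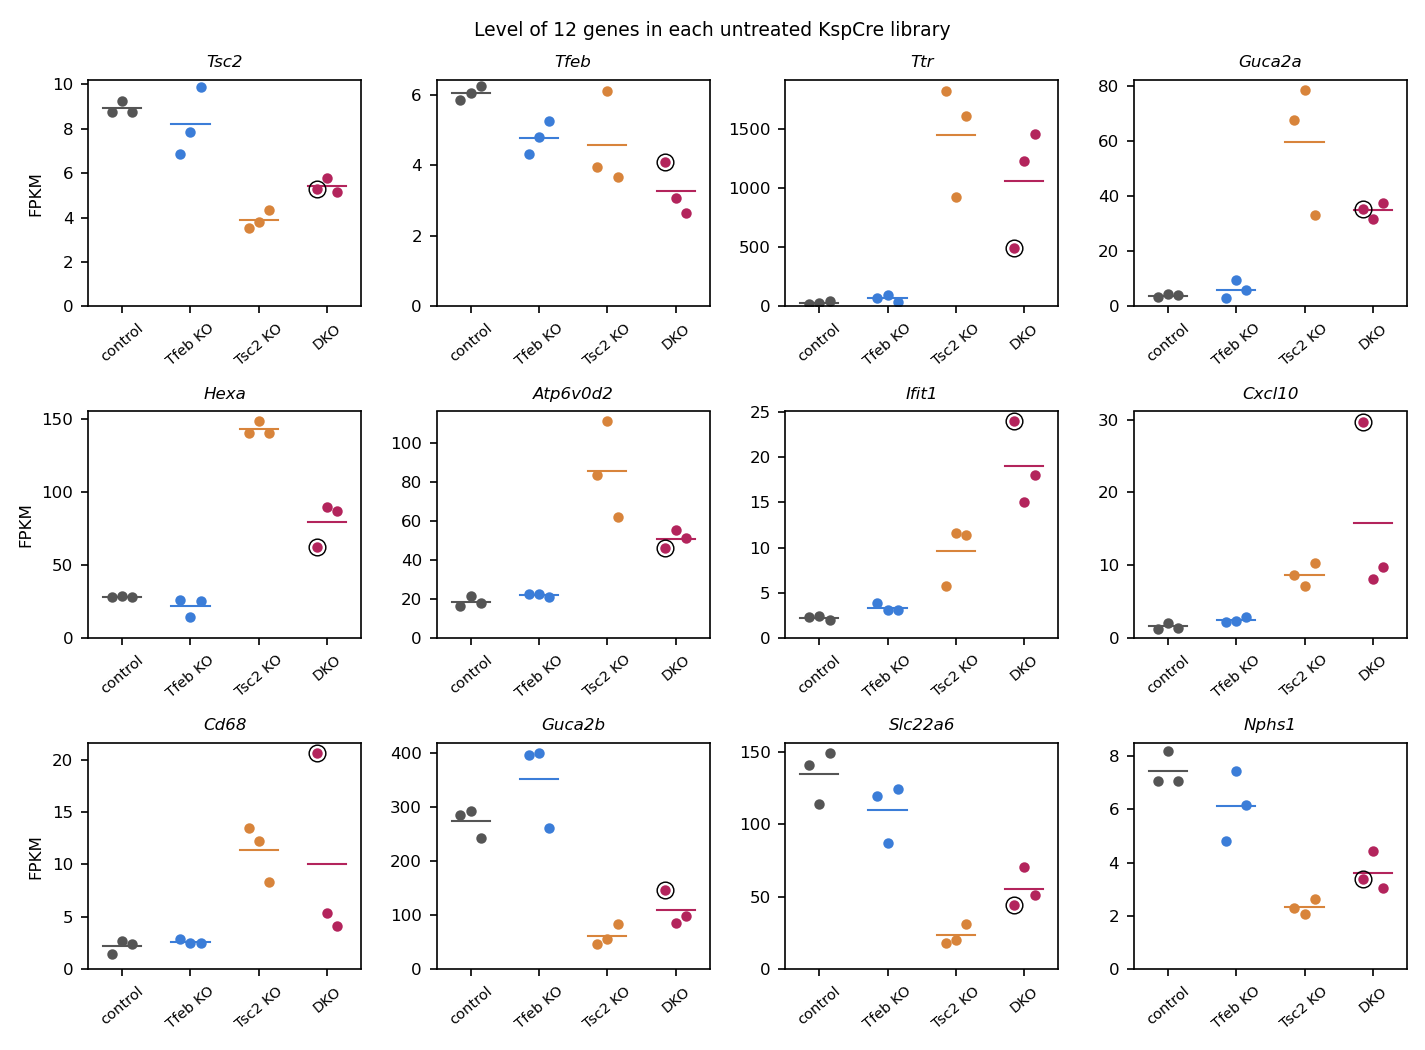
FPKM of 12 genes in each untreated KspCre library, 1 point per library, with the mean of each group of 3 as a line and DKO 1 ringed. In DKO kidneys Ttr, Guca2a, Hexa, Atp6v0d2 and Ifit1 lie above all controls in every library and Tsc2, Tfeb, Guca2b, Slc22a6 and Nphs1 below, while DKO 1 is the highest point for Cd68 and Cxcl10, with the Tsc2 KO libraries next for Cd68.

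Of 30 macrophage genes tested, 1 was increased (3.33%, against 1.08% of all tested genes), namely Cd68, the macrophage lysosomal glycoprotein. None was called of 22 T cell, 21 B cell and 6 neutrophil genes tested, of which 3, 8 and 3 reached the 5 FPKM that a call needs. Their medians were high with all libraries, at 1.73 for macrophages, 2.88 for T cells, 2.34 for B and plasma cells and 3.58 for neutrophils. Without DKO 1 they were 0.23, 0.46, 0.09 and -0.14. Cd68 was at 20.6, 5.41 and 4.14 FPKM in DKO and 1.48, 2.72 and 2.39 FPKM in control libraries, and its fold change of 2.20 (adjusted p = 0.0487) was 1.12 without DKO 1 (adjusted p = 0.105). Single lymphocyte and neutrophil genes varied in the same way, with Cd3e of the T cell receptor complex at 3.42, 0.205 and 0.208 FPKM (log2 fold change 3.78, adjusted p = 0.0891) and S100a9 of neutrophil granules at 12.6, 1.37 and 1.16 FPKM (3.69, adjusted p = 0.101) in DKO 1, 2 and 3.

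Lysosomal genes, the best known targets of TFEB, were increased in part in DKO kidneys. The 96 genes are those the study lists for this cohort from the KEGG lysosome pathway, so their direction is not independent evidence. Of the 96, 12 were increased (12.5%, against 1.08% of all tested genes and 2.33% of those reaching 5 FPKM) and 0 decreased. Without DKO 1, 9 were increased (0.837% of all tested genes). The median log2 fold change was 0.17, and 0.20 without DKO 1, with 69 of 96 genes higher than in control. The 12 were Cd68, Ctsc, Hexa, Atp6v0d2, Tcirg1, Ctsd, Psap, Ctsb, Gusb, Gnptab, Atp6v0a1 and Npc2, with fold changes of 0.62 to 2.20.

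Hexa (ENSMUSG00000025232, chromosome 9, 59539540 to 59565109, plus strand), the alpha subunit of beta-hexosaminidase, was at 28.4, 28.9 and 28 FPKM in controls and 62.6, 89.5 and 87.4 FPKM in DKO libraries (1.49, SE 0.21, adjusted p = 0.00584). DKO 1 had the lowest of the 3 DKO values, and the change was 1.64 without it. The protease genes Ctsd and Ctsb, which encode cathepsins D and B, had fold changes of 1.01 and 0.87 (adjusted p = 0.0043 and 0.0295), from 174, 164 and 150.3 to 324, 348 and 311 FPKM for Ctsd. Psap, the precursor of the saposins that activate sphingolipid hydrolases, was at 539.5, 517 and 499 and 857, 1007 and 1215 FPKM (0.99, adjusted p = 0.0147). As for every increased gene, the DKO values of these 4 were all above the controls, and none was highest in DKO 1. Ctsc, or cathepsin C, a protease also abundant in immune cells, was highest in DKO 1 (25.3, 12.6 and 16.3 FPKM in DKO and 4.17, 5.71 and 5.47 FPKM in control libraries). Its fold change of 1.82 was 1.5 without DKO 1 (adjusted p = 0.00325). Among the 12 libraries, 8 of the 96 lysosomal genes were highest in DKO 1. Cd68, Tcirg1, Gusb and Npc2 were not called without DKO 1, and Ctsl, or cathepsin L, was called only without it.

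The V-ATPase, the proton pump that acidifies lysosomes and the urine, had 4 increased genes among 23 tested (17.4%, against 2.33% of all genes reaching 5 FPKM), and 3 without DKO 1, namely Atp6v0d2, Atp6v0a1 and Atp6ap2. Atp6v0d2 was at 16.2, 21.5 and 17.8 FPKM in control and 45.9, 55.4 and 51.3 FPKM in DKO libraries (1.46, SE 0.19, adjusted p = 0.0049, and 1.53 with adjusted p = 0.00573 without DKO 1). Atp6v0a1 rose by 0.63 (adjusted p = 0.0194), Atp6v1c2 by 0.97 (adjusted p = 0.0359) and Tcirg1 by 1.22 (adjusted p = 0.0305). Without DKO 1, Atp6v1c2 and Tcirg1 were at 1.01 and 0.96 (adjusted p = 0.0642 and 0.0886), and Atp6ap2, an accessory protein of the pump, at 0.63 (adjusted p = 0.0464, and 0.107 with all libraries). In 14 of the 23 genes all DKO libraries lay above all controls (13.0% of all tested genes did), and the list's median was 0.22, or 0.29 without DKO 1. Of 33 autophagy genes tested none was called. Sqstm1, the autophagy receptor p62, was at 157, 187 and 199 FPKM in DKO and 142, 144 and 134 FPKM in control libraries (log2 fold change 0.37, adjusted p = 0.183), and Map1lc3a was at -0.20 (adjusted p = 0.492).

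Among MiT/TFE factors and their targets, Atp6v0d2 and Rragd were increased (12.5% of 16 tested, against 1.08% of all tested genes) and Tfeb decreased (6.25%, against 0.722%). Rragd, which encodes the RagD GTPase that brings mTORC1 to lysosomes, was at 12.8, 10.9 and 17.1 FPKM in control and 21.5, 25.8 and 31.1 FPKM in DKO libraries (0.94, SE 0.18, adjusted p = 0.0216), and 1.07 without DKO 1 (adjusted p = 0.0165). In the list of 30 genes of Rag, Ragulator and mTORC1, Rragd was the one increased and Tsc2 the one decreased gene (3.33% each). Gpnmb, a melanosomal and lysosomal glycoprotein that MiT/TFE factors switch on, was at 0.0393, 0.0297 and 0.0171 FPKM in controls, or 2 to 4 counts per library, and 4.6, 1.8 and 0.502 FPKM in DKO libraries. Its change passed the adjusted p (6.30, adjusted p = 0.0049, and 5.29 with adjusted p = 0.00308 without DKO 1) but not the FPKM minimum, so it was not called. DKO 1 held the highest value of the 3, and macrophages also express this gene.

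Genes of the ATF4 programme, which mTORC1 and the integrated stress response share, were raised in part. Of 29 tested, 4 were increased (13.8%, against 1.08% of all tested genes), and 3 without DKO 1 (0.837%). The median was 0.75, or 0.58 without DKO 1. Nupr1, a stress-induced chromatin protein, was at 5.2, 9.95 and 14.1 FPKM in control and 61.8, 74.8 and 62.4 FPKM in DKO libraries (2.76, SE 0.55, adjusted p = 0.0251, and 2.81 with adjusted p = 0.0419 without DKO 1). Ddit4, an inhibitor of mTORC1, was at 18.2, 10.3 and 9.83 and 30, 31.2 and 33.9 FPKM (1.32, adjusted p = 0.0175, and 1.35 with adjusted p = 0.028 without DKO 1). Ddit3, the stress factor CHOP, and Slc7a5, the large amino acid transporter LAT1, rose by 1.25 and 1.33 (adjusted p = 0.0194 and 0.0199), the latter with adjusted p = 0.0514 without DKO 1. As in all 299 called genes, the groups did not overlap in these 4. Mthfd2, the mitochondrial enzyme of one-carbon metabolism that the study follows as a readout of mTORC1, was at 1.16, 1.7 and 1.09 FPKM in control and 3.98, 3.08 and 4.62 FPKM in DKO libraries. Its change of 1.57 passed the adjusted p (0.00858, and 0.0154 without DKO 1) but its DKO mean of 3.89 ± 0.772 FPKM was under the minimum.

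In sterol and fatty acid synthesis, 3 of 30 genes were increased with all libraries (10%, against 1.08% of all tested genes) and 4 without DKO 1 (0.837% of all tested genes). Scd2, a fatty acid desaturase, was at 27.4, 23.9 and 46.9 FPKM in control and 62.3, 97.8 and 122 FPKM in DKO libraries (1.52, adjusted p = 0.0275). Msmo1, an enzyme of cholesterol synthesis, was at 4.13, 4.26 and 6.28 and 9.63, 11.7 and 12.9 FPKM (1.22, adjusted p = 0.0139). Both were also called without DKO 1, when Insig1, which holds back sterol synthesis, was called too (1.35, adjusted p = 0.0376, and 0.063 with all libraries). The summed level of the sterol list was 1605, 774 and 699 FPKM in controls and 789.9, 1231 and 803 FPKM in DKO libraries, which overlapped. Adipose markers varied widely in both groups (249.6 to 967 FPKM summed in controls, 167 to 1332 FPKM in DKO), and their part in these values was not tested. One of 26 genes of glycolysis and the pentose phosphate pathway was increased (3.85%, against 2.33% of all genes reaching 5 FPKM), Aldoc, at 16.7, 12.4 and 27 FPKM in DKO and 8.01, 7.03 and 9.47 FPKM in control libraries (1.19, adjusted p = 0.0318, and 0.17 in Tsc2 KO against control with adjusted p = 0.731).

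Of 29 injury genes, 4 were increased and none decreased (13.8%, against 1.08% of all tested genes, and 3 without DKO 1), namely Hmox1, Krt18, Tnfrsf12a and Spp1. Spp1, or osteopontin, was at 1184, 1412 and 1506 FPKM in control and 3142, 2568 and 3172 FPKM in DKO libraries (1.11, SE 0.19, adjusted p = 0.0127). Hmox1, the haem-degrading enzyme that is also a member of the NRF2 and iron lists, was at 9.51, 13.6 and 9.57 and 29.4, 40.6 and 47.7 FPKM (1.85, adjusted p = 0.0121). Tnfrsf12a, the TWEAK receptor, was at 6.2, 7.11 and 6.19 and 17.1, 12.8 and 14.2 FPKM (1.18, adjusted p = 0.0111). These 3 genes were also called without DKO 1. Krt18, a keratin of simple epithelia that also stands in the principal cell list, was at 88, 76.4 and 45.8 FPKM in DKO and 21.9, 27.8 and 34.4 FPKM in control libraries (1.32, adjusted p = 0.041, and 0.118 without DKO 1). The median of the injury list was 1.18 with and 0.45 without DKO 1, the library in which 13 of the 29 genes were the highest of 12.

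Cell cycle genes were low in all kidneys, and 5 of 36 reached the FPKM minimum. At the adjusted p alone, 16 of 36 were higher in DKO and none lower (by this rule 2.27% of all tested genes were higher and 0.830% lower), and 8 higher without DKO 1 (1.54% and 0.336%). The median log2 fold change was 1.58, and 1.26 without DKO 1, and in 28 of the 36 all DKO libraries lay above all controls (13.0% of all tested genes did). The called member was Rrm2, a subunit of the enzyme that makes deoxyribonucleotides, at 2.13, 3.44 and 2.17 FPKM in control and 7.88, 5.94 and 5.83 FPKM in DKO libraries (1.35, SE 0.22, adjusted p = 0.0121). The summed level of the list was 87.1, 95 and 95.3 FPKM in controls and 156, 107 and 112 FPKM in DKO 1, 2 and 3, against 187 to 235 FPKM in Tsc2 KO kidneys. No gene of the extracellular matrix list was called among 38. Col1a1, a collagen I chain, was at 31.2, 11.4 and 10.3 FPKM in DKO and 4.87, 8.52 and 8.11 FPKM in control libraries (1.30, adjusted p = 0.151) and Col1a2 differed by 0.68 (adjusted p = 0.423). The list's median of 0.41 was 0.08 without DKO 1.

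The 10 largest decreases called with and without DKO 1 were those of Slc10a2, Acy1, Macrod2, Dpys, Akr1d1, Afmid, Guca2b, Gpm6a, Cckar and Rdh16f2. Most of these genes encode enzymes or transporters. As for the increases, a call without DKO 1 and groups that did not overlap were conditions of the choice. Acy1, an aminoacylase that frees amino acids from their acetylated forms, was at 151, 92.2 and 106 FPKM in control and 40.6, 24.4 and 27.5 FPKM in DKO libraries (-1.91, SE 0.26, adjusted p = 0.0049). Slc10a2, the apical bile acid transporter, was at 24.5, 15 and 35.3 and 8.45, 3.09 and 3.89 FPKM (-2.27, adjusted p = 0.0351). For both genes the lowest control lay above the highest DKO value, and without DKO 1 the changes were -2.16 and -2.83 (adjusted p = 0.00325 and 0.0214).

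Dpys, an enzyme of pyrimidine breakdown, was at 10.6, 9.54 and 8.44 FPKM in control and 2.14, 3.79 and 3.78 FPKM in DKO libraries, and Afmid, an enzyme of tryptophan breakdown that overlaps Tk1 on the opposite strand, at 6.71, 5.98 and 5.69 and 1.68, 2.82 and 2.27 FPKM. They changed by -1.56 and -1.44 (adjusted p = 0.0191 and 0.0101), and by -1.33 and -1.27 without DKO 1 (adjusted p = 0.0419 and 0.0188). Rdh16f2, of a retinol dehydrogenase family whose members are similar enough that reads may have been shared, was at 364, 254 and 288 FPKM in control and 118, 145 and 122 FPKM in DKO libraries (-1.23, adjusted p = 0.0119). Akr1d1, a steroid 5-beta-reductase, was at 14.4, 10.5 and 12.6 and 4.92, 3.84 and 4.83 FPKM (-1.46, adjusted p = 0.0127). Gpm6a, a membrane glycoprotein, Cckar, a cholecystokinin receptor, and Macrod2, a hydrolase of ADP-ribose, changed by -1.28, -1.26 and -1.59 (adjusted p = 0.0081, 0.0118 and 0.0147).

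Of 32 proximal tubule genes, 3 were decreased (9.38%, against 0.722% of all tested genes) and none increased, and 1 was decreased without DKO 1. The organic anion transporters Slc22a6 (OAT1) and Slc22a8 (OAT3) were at 44.3, 71 and 51.5 and 104, 168 and 117 FPKM in DKO libraries, and at 141, 114 and 149.6 and 269.8, 268 and 266 FPKM in controls. Their changes were -1.28 and -1.04 (adjusted p = 0.0194 and 0.0252, and 0.0521 and 0.0695 without DKO 1). With each library left out, the changes ranged from -1.49 to -1.14 for Slc22a6 and from -1.27 to -0.91 for Slc22a8. Ggt1, gamma-glutamyltransferase of the brush border, was at 278, 218 and 226 and 149, 137 and 122 FPKM (-0.82, adjusted p = 0.0168, and 0.0229 without DKO 1). The list's median was -0.61, and -0.44 without DKO 1.

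Fatty acid oxidation, the main fuel pathway of this tubule, had 2 decreased genes of 28 (7.14%, against 0.722% of all tested genes and 1.56% of those reaching 5 FPKM), and 1 without DKO 1. All 28 were lower in DKO than in control kidneys, with and without DKO 1 (8232 of 16631 tested genes with all libraries). In 12 of the 28 all DKO libraries lay below all controls (12.3% of all tested genes did). Ehhadh, the bifunctional enzyme of peroxisomes, was at 268, 194 and 233 FPKM in control and 102, 115 and 82.7 FPKM in DKO libraries (-1.21, SE 0.18, adjusted p = 0.0081). Cyp4a31, a fatty acid hydroxylase with close relatives in the genome, changed by -0.98 (adjusted p = 0.0224, and 0.0564 without DKO 1). The median was -0.54, or -0.40 without DKO 1. None of 32 genes of oxidative phosphorylation was called. Their median was -0.21, and in 22 of the 32 all DKO libraries lay below all controls. In the vehicle cohort the median of these genes was 0.04. Ndufa1 and Ndufa2 of complex I differed by 0.25 and -0.24 (adjusted p = 0.505 and 0.551).

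Podocytes, the filtering cells of the glomerulus, are not a target of KspCre. Of 16 podocyte genes, 4 were decreased (25%, against 0.722% of all tested genes and 1.56% of those reaching 5 FPKM). All 16 had lower values than in controls, as had 8232 of all 16631 tested genes. Without DKO 1, 1 was decreased (0.277% of all tested genes). Nphs1, or nephrin of the slit diaphragm, was at 7.08, 8.18 and 7.05 FPKM in control and 3.4, 4.44 and 3.04 FPKM in DKO libraries (-1.04, SE 0.18, adjusted p = 0.0147, and -1.0 with adjusted p = 0.0419 without DKO 1). Podxl, or podocalyxin, Cdkn1c, an inhibitor of the cell cycle, and Synpo, an actin-binding protein of foot processes, changed by -0.85, -0.72 and -0.63 (adjusted p = 0.0295, 0.0357 and 0.0447, and 0.0909, 0.077 and 0.125 without DKO 1). None of 18 endothelial genes was called, with Pecam1 at -0.40 and Cdh5 at -0.34 (adjusted p = 0.332 and 0.455). Their median was -0.39, and -0.28 without DKO 1. The median of the podocyte list was -0.62, and -0.58 without DKO 1.

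Along the distal nephron, Umod was the one gene called in 24 genes of the thick limb and distal convoluted tubule (4.17% increased, against 1.08% of all tested genes and 2.33% of those reaching 5 FPKM). Umod, or uromodulin, the most abundant protein of normal urine, was at 1077, 1112 and 1181 FPKM in control and 2610, 1586 and 2971 FPKM in DKO libraries (1.09, SE 0.26, adjusted p = 0.0446, and 0.108 without DKO 1). Its log2 fold change ranged from 0.90 to 1.31 with each library left out. The list's median was -0.21, and -0.24 without DKO 1. Of the 24 genes, 20 were lower than in control, as were 8232 of all 16631 tested genes. Of 20 intercalated cell genes, 3 were increased (15%, against 1.08% of all tested genes), and 2 without DKO 1 (0.837%). The 3 were the V-ATPase genes Atp6v0d2 and Atp6v1c2 and the adhesion protein Hepacam2, at 4.24, 4.51 and 3.43 and 8.21, 10.1 and 8.22 FPKM (1.12, adjusted p = 0.0158, and 1.17 with adjusted p = 0.0239 without DKO 1). The median of the list was 0.46, and 0.52 without DKO 1. Krt18 was the one gene called among 19 principal cell genes (5.26%), and it was not called without DKO 1 (adjusted p = 0.118). The median of the list was 0.32, and 0.28 without DKO 1.

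The shares of called genes in the next lists stand against 1.08% increased and 0.722% decreased of all tested genes, and 2.33% and 1.56% of those reaching 5 FPKM. Of 21 NRF2 targets, Hmox1, Ephx1 and Srxn1 were increased (14.3%), the latter 2 by 0.95 and 0.58 (adjusted p = 0.0408 and 0.0262, and 0.0258 and 0.0184 without DKO 1). Of 18 genes of vitamin D, klotho and calcium handling, Slc20a1, a phosphate transporter, was the one increased (5.56%, 3.91, 3.63 and 3.18 FPKM in control and 7.8, 7.29 and 6.78 FPKM in DKO libraries, 1.03, adjusted p = 0.0121, and 0.98 with adjusted p = 0.0288 without DKO 1). Among 20 polycystic kidney disease genes Umod was increased and Tsc2 decreased (5% each, and neither without DKO 1), and among 21 iron genes Hmox1 was increased (4.76%). None was called with all libraries among 40 cytoplasmic ribosomal protein genes (median -0.19), 9 of the renin-angiotensin system (-0.61), 22 of the insulin and IGF axis (-0.22), 19 immediate early genes (0.45), 12 adipose genes (0.16) or 15 smooth muscle and urothelial genes (0.47). Without DKO 1 these medians were -0.30, -0.45, -0.18, 0.05, 0.19 and 0.46, in the same order. In that fit 1 of the 9 renin-angiotensin genes was increased (0.837% of all tested genes were). With all libraries none was called among 4 adrenal cortex genes (-0.12) or 2 adrenal medulla genes (-0.60) either. The first members tested had log2 fold changes of -0.27 for Rpl3, -0.80 for Ren1, -0.04 for Igf1, 0.78 for Fos, 0.26 for Adipoq, 0.47 for Myh11, -0.10 for Star and -0.42 for Ddc, with adjusted p of 0.408, 0.485, 0.963, 0.59, 0.952, 0.542, 0.904 and 0.441.

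**Figure D4:**
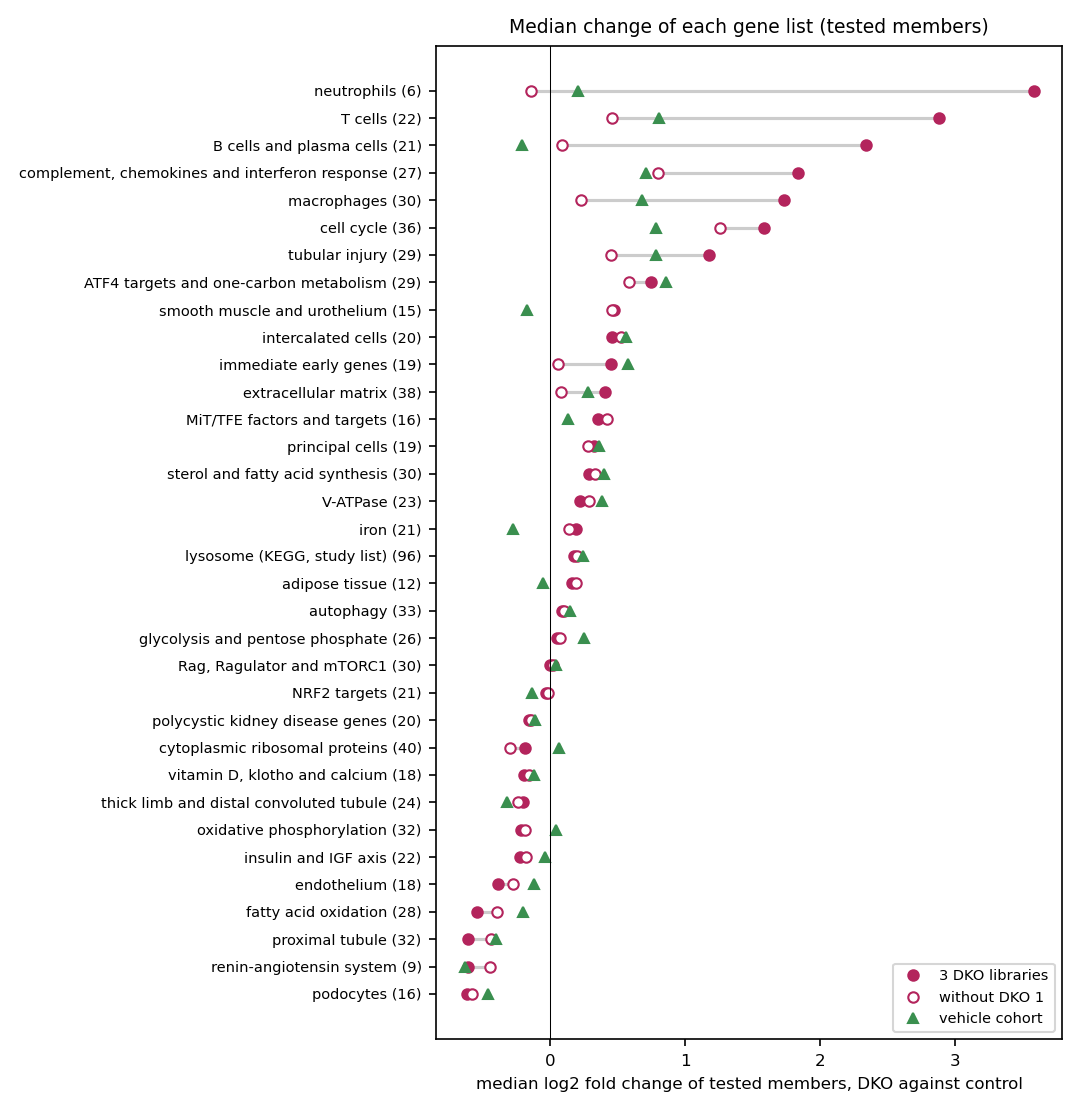
Median log2 fold change, DKO against control, of the tested members of each gene list with at least 5 tested members (number in parentheses): all 3 DKO libraries (filled circle), without DKO 1 (open circle) and the vehicle cohort (triangle). The immune cell medians lie nearer 0 without DKO 1, for example -0.14 after 3.58 for neutrophils, while the open and filled circles of lysosomal, V-ATPase, intercalated cell and podocyte genes nearly coincide.

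The same controls serve for the Tsc2 KO kidneys, so the DKO and Tsc2 KO changes share samples and are given side by side, with the direct contrast as the test. Set against Tsc2 KO, DKO kidneys had 9 increased and 13 decreased genes (0.0541% and 0.0782% of tested genes), and 9 and 12 without DKO 1 (0.0530% and 0.0707%). Of the 299 genes that differed between DKO and control, 8 were among these 22. The named genes among the 8 were Tnfrsf12a, Spp1 and Slc20a1. Tnfrsf12a changed by 1.18 in DKO and 2.55 in Tsc2 KO kidneys, a difference of -1.37 (adjusted p = 0.024, and 0.0366 without DKO 1). For Spp1 the changes were 1.11 and 2.31, with a difference of -1.19 (adjusted p = 0.0355, and 0.0695 without DKO 1), and for Slc20a1 1.03 and 2.21, with a difference of -1.19 (adjusted p = 0.0247, and 0.0482 without DKO 1). All 3 were thus above control and below Tsc2 KO in DKO kidneys. Of the others, those given here were chosen after their values were seen. Pigz and Uap1l1 also lay between the control and Tsc2 KO groups, with DKO changes of 2.94 and 0.70 and differences from Tsc2 KO of -2.10 and -0.74 (adjusted p = 0.0355 and 0.0355, and 0.0749 and 0.078 without DKO 1). Car4, a membrane carbonic anhydrase, and Hao2, a peroxisomal oxidase, changed by -0.69 and -0.96 in DKO and differed from Tsc2 KO by 1.00 and 1.21 (adjusted p = 0.0247 and 0.0415, and 0.0529 and 0.0377 without DKO 1). Also chosen after their values were seen were Fxyd4 of principal cells and Insrr of intercalated cells, which were not called between DKO and control (-0.82 and 0.30, adjusted p = 0.21 and 0.446) and were higher in DKO than in Tsc2 KO kidneys by 2.32 and 1.70 (adjusted p = 0.0355 and 0.0212, and 0.0377 and 0.0106 without DKO 1).

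The other genes called between DKO and control were not called between DKO and Tsc2 KO. Hexa differed from control by 1.49 in DKO and 2.33 in Tsc2 KO kidneys (difference -0.84, adjusted p = 0.112), and Acy1 by -1.91 and -2.94 (difference 1.03, adjusted p = 0.118). Ptgds differed by 3.27 and 5.54 (difference -2.27, adjusted p = 0.0943). For the lysosomal list the medians were 0.17 in DKO and 0.37 in Tsc2 KO, for podocytes -0.62 and -1.28, and for principal cells 0.32 and -0.46. For the proximal tubule they were -0.61 and -0.69, for fatty acid oxidation -0.54 and -0.40, and for oxidative phosphorylation -0.21 and -0.13. Without DKO 1 the DKO medians of these 6 lists were 0.20, -0.58, 0.28, -0.44, -0.40 and -0.19. A difference that misses the threshold does not show that the 2 genotypes were alike. Tfeb KO kidneys share the controls as well, and the study's legends describe such mice as Cre-expressing. Of 16631 genes tested between Tfeb KO and control, 0 were increased and 0 decreased. An effect of Cre in DKO kidneys was not tested. Tfeb KO kidneys had 22.1 ± 6.47 FPKM of Hexa, 70.5 ± 31.2 FPKM of Ttr and 3.34 ± 0.42 FPKM of Ifit1 (SD, n = 3). The control means were 28.4 ± 0.473, 30.8 ± 15 and 2.25 ± 0.237 FPKM.

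The vehicle-treated cohort gave a second comparison of DKO with control kidneys at P50, with other mice on both sides and a table of its own. There 415 of 17027 genes were increased (2.44%) and 236 decreased (1.39%). All 179 genes increased in untreated DKO kidneys were higher in vehicle-treated DKO kidneys too, and 125 of them were called increased (69.8%). Of the 7658 genes tested in both cohorts that reached the FPKM minimum, 52.9% were higher and 5.08% were called increased. Of the 120 decreased genes 117 were lower and 43 were called decreased (35.8%), against 47.1% and 2.9% of the 7658. No gene was called in the opposite direction. Of the 116 increased genes called with and without DKO 1, 96 were called in the vehicle cohort, and of the 63 that lost their call without DKO 1, 29. For the decreased genes these were 12 of 33 and 31 of 87.

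Ttr was at 41.9, 24.3 and 44.7 FPKM in vehicle-treated control and 889, 490.4 and 1292 FPKM in vehicle-treated DKO libraries (4.59, adjusted p = 0.000254). Guca2a rose by 3.28 (adjusted p = 0.000121) and Guca2b changed by -1.57 (adjusted p = 0.00712), so the pair moved in opposite directions in this cohort as well. Hexa was at 28.7, 33.9 and 28.1 and 101, 76 and 91.6 FPKM (1.56, adjusted p = 0.000928). Ifit1 was at 3.36, 3.07 and 2.88 and 9.62, 19.1 and 10.4 FPKM (2.07, adjusted p = 0.00102), Oasl1 rose by 2.80 (adjusted p = 0.000552) and Irf7 by 1.48 (adjusted p = 0.00534). In each of these genes the 2 groups of the vehicle cohort did not overlap. Ubd, whose fold change in the untreated cohort fell to 2.37 without DKO 1, had 2.31 (adjusted p = 0.0798). Among the 10 largest decreases, Macrod2, Afmid, Guca2b and Gpm6a were called again. Akr1d1 had a positive fold change of 2.33 (adjusted p = 0.102), with 11.1, 133 and 4.4 FPKM in the vehicle-treated DKO and 11.8, 8.95 and 8.63 FPKM in the vehicle-treated control libraries, so that 1 DKO library lay far above the rest. Transcripts of the adrenal cortex, which lies on the kidney, moved with it: the median of 4 genes was 4.08 in the vehicle cohort and -0.12 in the untreated one, and their part in the value was not tested. The lysosomal list had a median of 0.24 and 15 increased genes of 96 (2.44% of all genes tested in this cohort were increased), the podocyte list -0.47 and 1 decreased gene of 16 (1.39% of all were decreased), and the cell cycle list 0.78 and no called gene. At the adjusted p alone, 1 of the 36 cell cycle genes was higher in this cohort (by this rule 3.96% of all tested genes were).

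**Figure D5:**
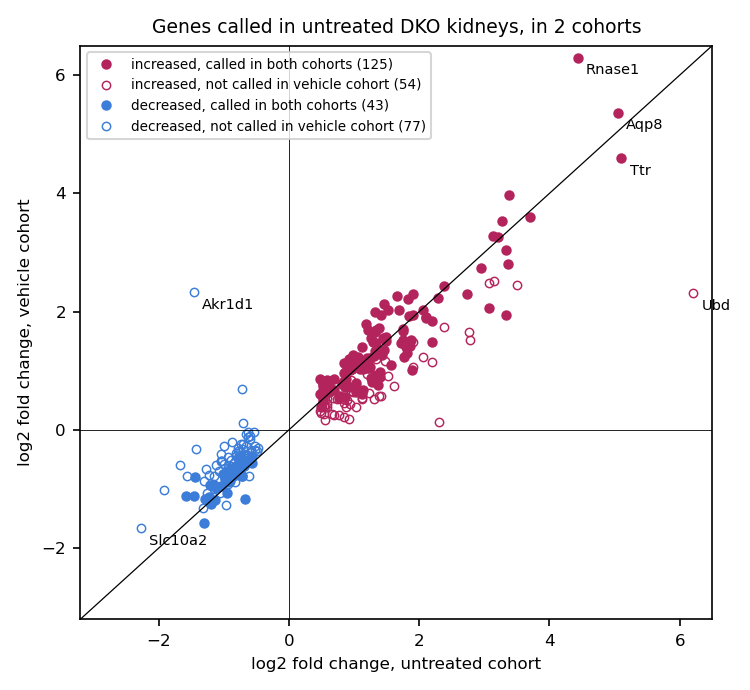
Log2 fold change, DKO against control, of the 299 genes called in the untreated cohort (horizontal axis) and of the same genes in the vehicle-treated cohort (vertical axis), 1 point per gene, filled where called in both, with the line of equal values. All 179 increased genes lie above 0 in the vehicle cohort and 117 of 120 decreased genes below 0, with Akr1d1 as the farthest exception.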

How the data were processed

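Poly-A RNA of whole kidneys was made into non-directional libraries and sequenced by the study. The authors deposited counts per gene and FPKM values per gene for the same libraries, with mm10 coordinates. The submitters' processing notes name STAR 2.6.1d, HISAT2 2.0.5, featureCounts 1.5.0-p3 and DESeq2 1.20.0, without the role of each aligner. Counts of the 12 untreated KspCre libraries (median 17049073 per library) were fitted here in edgeR 4.0.16 (R 4.3.3) with filterByExpr, TMM scaling and the quasi-likelihood test, with Benjamini-Hochberg adjustment over all tested genes. The standard error is the fold change divided by the square root of F. The 18 libraries of the vehicle and rapamycin table were fitted apart. Calls needed an adjusted p of at most 0.05 and a group mean of 5 or more in the deposited FPKM, after the thresholds of the study. No 2 DKO or control libraries held the same counts.

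Named genes are Tsc2, Tfeb, Gpnmb and Mthfd2, the 10 largest increases and 10 largest decreases among protein-coding genes called with and without DKO 1 whose groups did not overlap, the 5 largest increases lost without DKO 1, and in each of 37 lists up to 4 called genes or, with none called, the first 2 tested. Values of further called list members are given after they were seen. The members and lists were chosen with earlier results of these data known. The sex list checked the labels: all 12 untreated libraries matched one another. Xist was also present in each vehicle-treated DKO and control library, with a log2 fold change of -0.79 (adjusted p = 0.0544). Alternatives were other scaling, filters and FPKM minimums, DESeq2 1.42.0, the compared libraries alone, a replicate block, and each library left out. Fold changes on the log2 scale were computed here from the deposited counts. A few genes counted here are not reported by name.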

Additional observations from a re-analysis of the deposited data

How the results depend on the processing

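The direction of the 299 called genes held in each fit that left out 1 library, which their separated groups left little room to change. The number of called genes did not hold. Leaving out each library in turn gave 43 to 145 increased and 11 to 83 decreased genes, with the lowest counts without control 1. DESeq2 called 412 increased and 332 decreased genes, and no filter on low counts left 318 and 209. Fitting the 6 compared libraries alone gave 95 and 62, no FPKM minimum gave 378 increased genes and a minimum of 5 FPKM in every library 87. Without DKO 1, DESeq2 gave 280 and 194 and edgeR on the compared libraries alone 172 and 81, against 142 and 47 with all groups, both settings chosen after the data were seen. RLE scaling gave 183 and 114, and no scaling moved the median of all genes past 0.03. The cause of these differences was not tested. The sign reversed for 4 genes that were not called: with each library left out, Igf1 ranged from -0.28 to 0.23, Jun from -0.30 to 0.305, Adipoq from -0.90 to 0.948 and Plin1 from -0.92 to 0.995, and without DKO 1 the Jun log2 fold change was -0.0436 on the compared libraries alone and -0.0465 by DESeq2. Of 64 named genes that were called, 17 kept an adjusted p of 0.05 or lower with each library left out. All 64 kept their sign, which the separated groups again left little room to change. Depth limits the precision of fold changes that rest on few counts, as for Gpnmb with 2 to 4 counts in each control.

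Replicate numbers are shared between groups, but deviations of same-numbered DKO and control libraries from their group means correlated at -0.079, -0.106 and 0.242, so the numbers were not taken as pairs, and not every library correlated best with its own number. With the replicate block, 127 genes were increased and 53 decreased, Adipoq was at -0.31 and Plin1 at -0.44.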

Other observations

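Interferon-stimulated genes outside the gene list were looked for among the called genes after their values were seen, so their count carries no test. The 16 found were Oasl1, Ifit2, Ifit3b, Bst2, Rtp4, Irgm1, Stat2, Irf9, Ddx58, Ly6e, Ifi27, Lgals3bp, Parp9, Parp12, Parp14 and Dtx3l. Their log2 fold changes were between 0.78 and 3.37, and between 0.59 and 3.06 without DKO 1. Without DKO 1, 8 of the 16 were called (116 of all 179 increased genes were), and 11 were called increased in the vehicle cohort (125 of the 179 were). Ifit2, a partner of Ifit1 in binding viral RNA, was at 3.55, 5.04 and 6.38 FPKM in control and 19.8, 11.9 and 22.4 FPKM in DKO libraries (1.85, adjusted p = 0.0101, and 0.0172 without DKO 1). Stat2, which with Irf9 carries the interferon signal to the nucleus, was at 2.25, 3.66 and 3.61 and 9.51, 4.75 and 6.38 FPKM (1.12, adjusted p = 0.0437, and 0.131 without DKO 1).

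Leaving out DKO 1 also added genes, 26 increased and 14 decreased ones, and those named here were chosen after their values were seen. Among the 26 were Proz, F5 and F10. Proz, or protein Z, was at 1.5, 1.43 and 1.75 FPKM in control and 1.4, 7.97 and 5.79 FPKM in DKO libraries, and its fold change went from 1.69 (adjusted p = 0.0702) to 2.14 (adjusted p = 0.000952). F5, coagulation factor V, was at 0.577, 0.79 and 0.532 and 1.06, 5.5 and 4.8 FPKM (2.58 and 3.02), and F10, coagulation factor X, at 0.0938, 0.189 and 0.0611 and 1.56, 7.8 and 4.85 FPKM (5.35 and 5.77). With all libraries F5 and F10 passed the adjusted p (0.0308 and 0.02) but not the FPKM minimum. In all 3 the lowest DKO value was that of DKO 1, and none of them was called in the vehicle cohort. Ctsl, a lysosomal protease, rose by 1.02 without DKO 1 (adjusted p = 0.0185, and 0.0935 with it). Castor2, a homologue of the arginine sensor of mTORC1, rose by 0.88 without DKO 1 (adjusted p = 0.0136, and 0.0685 with it). Both were called increased in the vehicle cohort. Among the 14 decreased genes, the proximal tubule genes Slc22a13, Slc5a10 and Mep1b changed by -1.09, -1.29 and -1.30 without DKO 1 (adjusted p = 0.0415, 0.033 and 0.0428).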
